A study of Saccharomyces cerevisiae with 1245 samples.

Results

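The 9 ChIP-exo libraries described here were made against 4 budding yeast proteins that act on the TATA-binding protein: Bur6 and Ncb2, the subunits of negative cofactor 2 (NC2), Mot1 and Sub1. They were chosen by their titles, as all ChIP-exo libraries without heat shock whose target is exactly Bur6 (3 libraries), Ncb2 (2), Mot1 (1) or Sub1 (3). They are 9 of 1245 samples in the series, which holds 1115 ChIP-exo libraries without heat shock and with a peak list, covering 716 targets. They were set against the 3 libraries of the TATA-binding protein itself, Spt15. ChIP-exo trims immunoprecipitated DNA with an exonuclease up to the crosslinked protein, so that each peak in a deposited list is a single base position. All cells of these 12 libraries were grown in the rich medium YPD at 25°C to an optical density of 0.8 to 1.0 and fixed with 1.0% formaldehyde. Bur6 replicate 2 and Sub1 replicate 3 were made with antibodies labelled as from the Weil Lab, and the other 7 of the 9 libraries through a TAP tag on the target. Spt15 replicates 1 and 3 were made with an Abcam antibody and Spt15 replicate 4 with one from the Weil Lab. The labels give no strain beyond the target, and do not say whether replicates came from separate cultures, so the spread between them may be technical. The 15 untagged samples were not analysed here, so no background list stands beside these values.

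The TATA-binding protein nucleates the machinery of all 3 nuclear RNA polymerases. NC2 is a heterodimer of histone-fold proteins that clasps the TATA-binding protein on DNA and blocks the entry of TFIIA and TFIIB. Mot1 is an ATPase of the Swi2/Snf2 family that removes the TATA-binding protein from DNA and can act together with NC2. Sub1 is the yeast relative of the human coactivator PC4, a single-stranded DNA binding protein linked to transcription by RNA polymerases II and III. Genetic work on all of them found positive as well as negative effects on transcription.

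The lists of NC2, Mot1 and Sub1 were of similar size to those of Spt15 and lay mostly at promoters, at tRNA genes and within coding sequence, in shares that differed between libraries of 1 target. Bur6 replicates 1, 2 and 3 held 707, 868 and 1435 peaks. Ncb2 replicates 1 and 2 held 510 and 900, and Mot1 held 684. Sub1 replicates 1, 2 and 3 held 714, 1554 and 799 peaks. The Spt15 lists, replicates 1, 3 and 4, held 1808, 1337 and 629, so the 2 sets overlapped in size. The lists carry no read depth, so the absence of a peak does not show the absence of the protein.

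Promoter peaks were those outside coding sequence, no more than 500 bp before a coding start and not within 250 bp of a tRNA gene. The promoter share was 39.7%, 66.2% and 53.7% for Bur6, 22.9% and 38.4% for Ncb2, 40.4% for Mot1, and 46.2%, 45.6% and 45.3% for Sub1. The 3 Sub1 libraries lay close together, whereas the 5 NC2 libraries covered the whole range. The tRNA gene share was 5.09%, 2.42% and 19.7% for Bur6, 46.7% and 28.3% for Ncb2, 8.92% for Mot1, and 36.6%, 18.9% and 34.4% for Sub1. Spt15 had promoter shares of 70.1%, 64.1% and 42.6% and tRNA gene shares of 16.6%, 23.3% and 44.0%. NC2 and Spt15 overlapped in both shares, which were 44.2% ± 16.4 (SD, n = 5) and 58.9% ± 14.4 (n = 3) at promoters (difference -14.7 points, two-sided exact permutation test, adjusted p = 0.520).

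**Figure D1:**
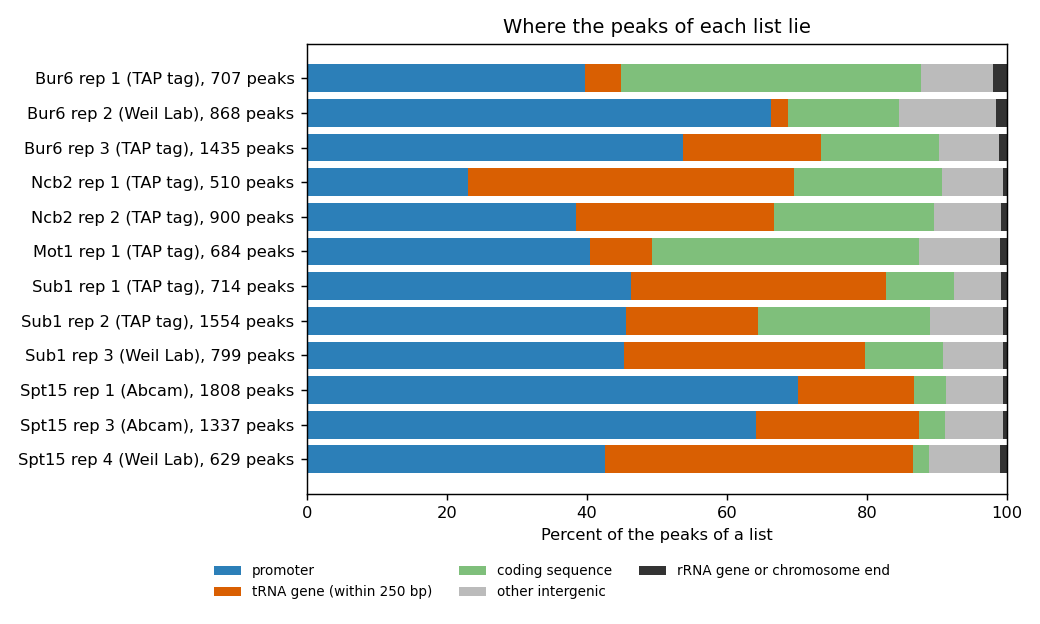
Percent of the peaks of each list (horizontal axis) by the place in which they lie, for the 9 libraries of Bur6, Ncb2, Mot1 and Sub1 and the 3 of Spt15 (rows, with antibody and list size). The coding sequence part is wider in each of the 9 rows than in any Spt15 row, and the tRNA gene part ranges from 2.42% in Bur6 replicate 2 to 46.7% in Ncb2 replicate 1.

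Promoter peaks of the NC2 subunits, where they matched, were centred on each other, but not every peak had a match. At promoters, peaks of one library were paired with the nearest peak of another within 100 bp and the distance was signed along the gene, negative meaning upstream. Over the 6 Bur6 and Ncb2 pairings the median distance of Bur6 from Ncb2 ran from -3 to 1 bp. Single peaks scattered to both sides of it: 47.4% to 67.9% of the matched peaks lay within 10 bp of each other, and the quartiles reached from -10.5 to 13 bp. Of all Bur6 peaks, 15% to 60.1% had an Ncb2 peak within 100 bp, depending on the libraries. Libraries of Bur6 differed among themselves by medians of -2 to 3 bp, with 45.1% to 62.4% of matched peaks within 10 bp. Ncb2 replicate 1, the shorter list, had 83.5% of its peaks within 100 bp of Ncb2 replicate 2 and 87.3% within 100 bp of Bur6 replicate 3. Only 25.3% of it was matched by Bur6 replicate 2, the list with the fewest tRNA gene peaks.

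Matched promoter peaks of Mot1 were likewise centred on those of NC2. The median distance of Mot1 promoter peaks from those of the 5 NC2 libraries ran from -3 to 0 bp, and 42.7% to 62.1% of the matched peaks lay within 10 bp. Of the 684 Mot1 peaks, 57.7% had a peak of Bur6 replicate 1 within 100 bp, 42.8% one of Bur6 replicate 2, 58.6% one of Bur6 replicate 3, 31.6% one of Ncb2 replicate 1 and 59.8% one of Ncb2 replicate 2. The same share was 36.7% ± 5.76 (SD over 3 library pairs) for the Spt15 lists, which share the Mot1 library with these values. At some named promoters the strongest peaks differed, as at EFB1 (Mot1 -388 bp, NC2 median -63 bp), CUP1-1 (-280 and -170 bp) and CUP1-2 (-424 and -178 bp). Mot1 has 1 library, so these values have no replicate check.

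NC2 and Mot1 lay upstream of the TATA-binding protein and Sub1 lay downstream of it. Against Spt15 replicate 1, the promoter peaks of the 5 NC2 libraries had median distances of -21, -18 and -19 bp for Bur6 and -15 and -19 bp for Ncb2, and Mot1 of -21.5 bp. Sub1 replicates 1, 2 and 3 had 17, 20 and 22 bp against the same list. Against Spt15 replicates 3 and 4 the NC2 medians ran from -28 to -14 bp, Mot1 had -24 and -25 bp, and Sub1 ran from 15.5 to 22 bp. No library of NC2 or Mot1 had a median downstream of any Spt15 list, and none of Sub1 had one upstream.

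Measured directly, without Spt15, the median distance of NC2 promoter peaks from those of Sub1 was -49.9 ± 3.48 bp (mean and SD over 15 library pairs, which share libraries). For Mot1 against the 3 Sub1 lists it was -50.3 ± 1.15 bp. Single peaks scattered more widely than these medians. The quartiles were -64 and -26 bp for Bur6 replicate 1 against Sub1 replicate 1. For Ncb2 replicate 1 against Sub1 replicate 2 they were -60.25 and 17.5 bp, with 70.6% of peaks upstream. The antibody differs between these libraries. Within the antibodies of the Weil Lab, Bur6 replicate 2 lay at -21 bp and Sub1 replicate 3 at 22 bp from Spt15 replicate 4, and Bur6 replicate 2 lay at -50 bp from Sub1 replicate 3. These are single library pairs, and the part of the antibody in the distances was not tested further.

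Over all matched peaks, tRNA genes included, the median distance from the nearest peak in any of the 3 Spt15 lists was -11, -13, -7, -0.5 and -6 bp in the NC2 libraries and 11, 14 and 14 bp in the Sub1 libraries. The groups did not overlap, at -7.50 ± 4.85 bp (SD, n = 5) for NC2 and 13 ± 1.73 bp (n = 3) for Sub1. The difference of -20.5 bp had a two-sided exact permutation p of 0.0357, which is the smallest that 5 against 3 libraries can give, and 0.202 after adjustment over 17 tests. All 5 NC2 libraries were upstream and all 3 Sub1 libraries downstream. With promoter peaks only, a choice made once the values were known, the difference was -27.2 bp. Taking the nearest peak of 3 lists makes these distances shorter than those from a single list.

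**Figure D2:**
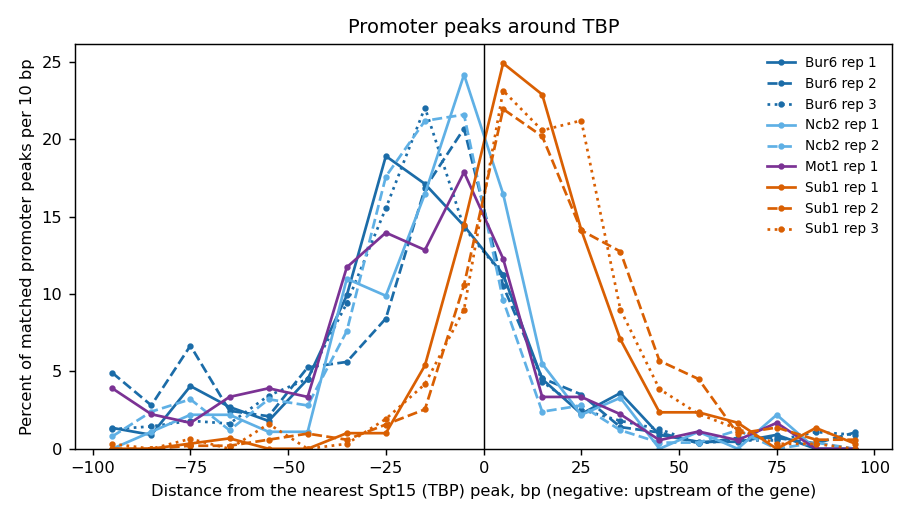
Distance in bp of promoter peaks from the nearest Spt15 peak (horizontal axis, negative upstream along the gene) against the percent of a library's matched promoter peaks in each 10 bp bin (vertical axis), one line for each of the 9 libraries. The 5 NC2 lines and the Mot1 line lie to the left of 0 and the 3 Sub1 lines to the right, with 69.2% to 81.6% of NC2 peaks upstream and 72.4% to 80.6% of Sub1 peaks downstream.

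The order held at most single places. Of the 1267 promoter peaks of Spt15 replicate 1, 667 had an NC2 peak within 100 bp in at least 1 library, and at 79.8% of these the mean NC2 position was upstream. Sub1 was near 550 of the same peaks and downstream at 82.2% of them. Mot1 was near 210 and upstream at 76.2%. Where NC2 and Sub1 were both near, at 384 places, NC2 lay upstream of Sub1 at 326 (84.9%), and at 271 (70.6%) the order NC2, Spt15, Sub1 was complete. With Spt15 replicates 3 and 4 as the base, the complete order stood at 70.5% and 68.2% of such places. These places share libraries and are given as a description, with no test.

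ZEO1 and YRA1 are examples of this order in which every library had a peak. At ZEO1 (chromosome XV, 110297 to 110638), the NC2 peaks lay at -181, -178, -175, -174 and -176 bp from the coding start and Mot1 at -178 bp. The Spt15 peaks there lay at -131, -140 and -130 bp and those of Sub1 at -113, -118 and -113 bp. The 4 factors did not overlap except for NC2 and Mot1. At YRA1 (chromosome IV, 1236558 to 1238004), which encodes an mRNA export adaptor, NC2 lay at -197, -192, -198, -194 and -198 bp and Mot1 at -199 bp. Spt15 followed at -174, -167 and -181 bp and Sub1 at -139, -146 and -140 bp. Again NC2 and Mot1 shared a place, upstream of Spt15 and then Sub1. Other named promoters with a peak in every library did not follow this order. At YEL008W it was reversed, with NC2 from -46 to -37 bp, Spt15 from -90 to -76 bp and Sub1 from -119 to -99 bp. RRT15 had a Sub1 median of -409 bp, upstream of the Spt15 median of -213 bp. At TRS31, NC2 ran from -485 to -274 bp, around both Spt15 (-445 to -439 bp) and Sub1 (-435 to -430 bp).

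At RPS19A (chromosome XV, 92026 to 92850), which encodes a small-subunit ribosomal protein, the NC2 positions ran from -132 to -113 bp, Mot1 was at -123 bp, Spt15 at -89, -57 and -55 bp, and Sub1 at -54, -58 and -44 bp. There the Spt15 and Sub1 ranges overlapped. At SSA2, a constitutive Hsp70 chaperone gene (chromosome XII, 95566 to 97485), NC2 ran from -133 to -125 bp, Mot1 was at -133 bp, Spt15 at -104, -126 and -123 bp, and Sub1 at -89, -64 and -70 bp. NC2 and Spt15 overlapped there, and Sub1 stood apart.

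Among the 10 NC2 promoters named by score, the positions agreed most closely at BDF2 (chromosome IV, 331024 to 332940), which encodes a bromodomain protein associated with TFIID, and at its divergent neighbour YET3, which shares the peak. The 5 NC2 libraries had peaks at -90, -89, -90, -88 and -90 bp (SD 0.894 bp), with Mot1 at -92 bp and Spt15 replicates 1 and 3 at -83 and -88 bp. Only replicate 2 of Sub1 had a peak there, at -41 bp. The paralog BDF1 had NC2 peaks at -54, -140, -136, -132 and -147 bp, Mot1 at -140 bp, and Sub1 from -89 to -79 bp.

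The rule that named these promoters takes the 10 highest-scoring ones bound in every library of NC2, of Mot1 and of Sub1. Because scores stop at 1000, the 10 Mot1 promoters are tied and were taken by name from a larger set, and the 10 Sub1 promoters are tied and were taken for the smallest spread of position, so that close Sub1 positions at them, those at YRA1 included, follow from the choice. The other NC2 promoters were RRT15, YEL008W, and 4 locus-tag genes between 476333 and 485842 on chromosome XII (YLR157C-A, YLR157C-B, YLR157C-C and YLR159C-A), where 284 to 376 other targets of the series also had peaks. RRT15 lies beside the ribosomal DNA, and 521 other targets had peaks there. The Mot1 promoters also held the metallothionein copies CUP1-1 and CUP1-2 (578 and 574 other targets), the proteasome regulator RPN4, the threonine aldolase gene GLY1, and the divergent pair DAS1 and SNA3. At RPN4, NC2 lay at -304, -298, -298, -300 and -299 bp and Mot1 at -302 bp, while Sub1 had 1 peak, in replicate 2, at -232 bp. MUD1 was named through a Mot1 peak that lies over the neighbouring gene TEF2. The Sub1 promoters also held CWP2 with its neighbours YKL096C-B and YKL097C, TRS31, ILV5, EFB1, SSA1 and NRD1. At CWP2, a cell wall mannoprotein gene, Sub1 lay at -74, -70 and -73 bp and Spt15 at -90, -95 and -83 bp, with NC2 peaks in 2 of 5 libraries and none in Mot1. SSA1 was named through peaks that lie at the EFB1 promoter.

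NC2, Mot1 and Sub1 shared many promoters with each other and with the TATA-binding protein. A promoter was called bound when at least 3 of the 5 NC2 libraries, the Mot1 library, or at least 2 of the 3 Sub1 or Spt15 libraries had a peak in the window that starts 700 bp before the coding start and ends 100 bp after it. Unlike the promoter peaks above, these calls kept peaks at tRNA genes that fall in the window. The part of such peaks in the counts and in the sharing was not tested. Of 6002 promoters, NC2 bound 679 (11.3%), Mot1 474 (7.9%), Sub1 734 (12.2%) and Spt15 1218 (20.3%), and 219 were bound by all 4. The NC2 count was 377 without Bur6 replicate 3 and 423 without Ncb2 replicate 2, and the Spt15 count was 557 without replicate 1 and 565 without replicate 3. A peak in every library was found for NC2 at 180 promoters (3%), for Sub1 at 550 (9.16%) and for Spt15 at 557 (9.28%). NC2 and Mot1 shared 380 promoters, 80.2% of those of Mot1 and 56.0% of those of NC2. NC2 and Sub1 shared 422, 62.2% of those of NC2 and 57.5% of those of Sub1. NC2 was called at 184 promoters (3.07%) with no Sub1 peak in any library, and Sub1 at 105 (1.75%) with no NC2 peak.

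Binding was more frequent the more Spt15 lists held the promoter. NC2 was called at 1.56% of the 4174 promoters in no Spt15 list, at 10% of the 610 in 1 list, at 23.9% of the 661 in 2 lists and at 70.9% of the 557 in all 3. Mot1 went from 1.70% to 46.7% and Sub1 from 1.73% to 81.9% over the same steps. The number of other targets with a peak at the promoter moved with it, from a median of 9 in the first of these sets to 63 in the last, and its part in the result was not tested. Over all promoters that median was 14, against 59 at the promoters of NC2, 62 at those of Mot1 and 57 at those of Sub1. Conversely, 175 promoters bound by Spt15 (2.92% of all) had no peak of NC2, Mot1 or Sub1 in any library. Windows that reach a tRNA gene were included in all these sets. Spt15 replicate 4, without which no promoter is in all 3 lists, had 44.0% of its peaks at tRNA genes. The part of tRNA genes in the rise was not tested.

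**Figure D3:**
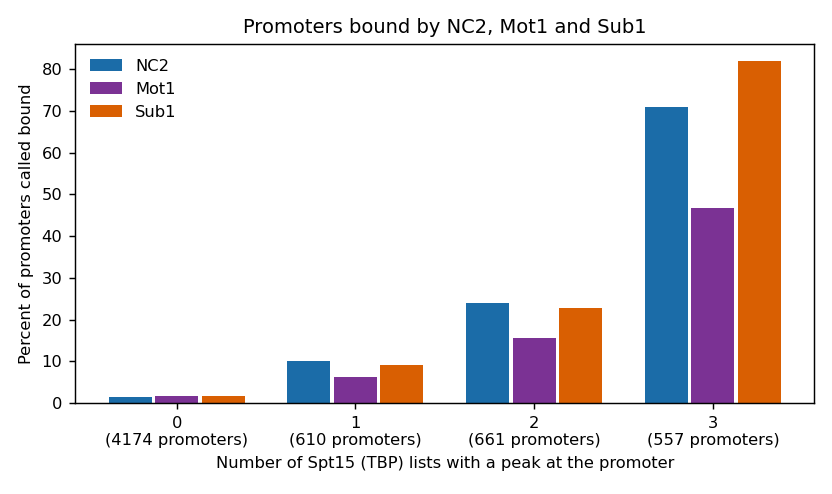
Percent of promoters called bound by NC2, Mot1 and Sub1 (vertical axis, bars from 0) by the number of Spt15 lists with a peak at the promoter (horizontal axis, with the number of promoters). The bars rise from under 2% with 0 lists to 70.9%, 46.7% and 81.9% with 3 lists, with Mot1, which has 1 library, lowest in the 3 sets on the right. Promoter windows that reach a tRNA gene are included.

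A few promoters were bound by NC2 in all 5 libraries with no peak in any Spt15 list. NC2 was called without any Spt15 peak at 65 promoters (1.08%), Mot1 at 71 (1.18%) and Sub1 at 72 (1.2%). In every NC2 library there were 9. The divergent pair DHH1 and STE7, encoding an activator of mRNA decapping and the kinase kinase of the mating pathway, had NC2 peaks at -149, -152, -138, -130 and -147 bp from the STE7 coding start (chromosome IV, 172481 to 174028) and Mot1 at -147 bp. Neither Sub1 nor Spt15 had a peak there. AFT1, the activator of the iron regulon, had NC2 peaks from -690 to -639 bp and Mot1 at -641 bp. ISA1 and NFU1, both for mitochondrial iron-sulfur cluster assembly, had NC2 peaks from -365 to -286 bp and from -611 to -533 bp. Peaks at NFU1 are the same as those at its divergent neighbour PTM1. AHC2, a gene of the ADA acetyltransferase complex, had NC2 peaks from -103 to -83 bp and none of Mot1. The NC2 scores at ISA1 ran from 68 to 142, near the lowest score of these lists, 66. The other 2 were the locus-tag genes YLR157C-C and YLR159C-A. Their NC2 peaks lay after the coding start, from 62 to 78 bp and from 62 to 99 bp, with Mot1 and all 3 Sub1 libraries nearby. Peaks of 307 and 284 other targets fell there too.

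Sub1 was found in all 3 libraries, with no peak of Spt15 or NC2 in the promoter window, at 10 promoters. Among them were the mating pathway gene FAR1 (-115, -83 and -117 bp), the isocitrate dehydrogenase gene IDH2, the threonine synthase gene THR4, IDI1 and DBP9. The others were the GABA permease gene UGA4, the pyruvate carboxylase gene PYC2, the agglutinin gene AGA2 (-79, -79 and -68 bp), and the divergent pair CYT1 and YNG1. Mot1 had no peak at any of the 10. At DBP9 the Sub1 peaks lay at -119, -120 and -124 bp and at UGA4 at -669, -672 and -667 bp. The UGA4 peaks lie inside the tRNA gene YNCD0001W (chromosome IV, 83548 to 83618), which is 652 bp from the UGA4 coding start. That tRNA gene had peaks of Spt15 in 3 libraries and of NC2 in 3 libraries, so Sub1 was not alone there. These sets are what their definition makes them and are given as values.

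Of 16 genes listed as glycolytic, for the breakdown of glucose, NC2 bound 13, Mot1 14, Sub1 15 and Spt15 12. The list includes the fermentation genes PDC1 and ADH1. Of 138 ribosomal protein genes, NC2 bound 67 (48.6%), Mot1 59 (42.8%), Sub1 67 and Spt15 136 (98.6%), beside backgrounds of 11.3%, 7.9%, 12.2% and 20.3% over all promoters. Of the 5 translation elongation factor genes, the counts were 3, 4, 5 and 5, and of the 7 hexose transporter genes 0, 0, 0 and 3. Among library values, ribosomal protein promoters with a peak numbered 58, 68 and 134 for Bur6, 27 and 73 for Ncb2, 59 for Mot1 and 64, 96 and 55 for Sub1, of 138. Their share of all bound promoters was 9.34% ± 2.09 (SD, n = 5) for NC2 and 11.5% ± 4.20 (n = 3) for Spt15, which overlapped (difference -2.13 points, two-sided exact permutation test, adjusted p = 0.607).

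Of the 16 genes of the glycolytic list, 13 had a peak of NC2, Spt15 and Sub1. At 12 of these the medians stood in the order NC2, Spt15, Sub1. The exception was PFK2. At 6 of the 13 the ranges did not overlap (HXK2, PGI1, TPI1, TDH2, TDH3 and GPM1), and at the others they did. The medians were in this order at 1 of 6 histone genes, whose pairs share promoters, at 5 of 7 chaperone genes and at 2 of 4 translation factor genes with all 3. They were in this order at 3 of 3 nucleotide synthesis genes and at 0 of 3 genes for the TATA-binding protein and its partners. At TDH3, which encodes glyceraldehyde-3-phosphate dehydrogenase, NC2 lay at -142, -128, -137, -132 and -142 bp, Mot1 at -142 bp, Spt15 at -90, -108 and -118 bp, and Sub1 at -76, -59 and -70 bp. None of the NC2 positions reached the Spt15 range and none of the Spt15 positions the Sub1 range. At PGI1, phosphoglucose isomerase, NC2 was within -261 to -256 bp, Mot1 at -261 bp, Spt15 within -224 to -218 bp and Sub1 within -206 to -84 bp. ENO1 and PFK1 were bound by Sub1 in 3 libraries and had no Spt15 peak.

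In 9 pairs of paralogs from these lists, paired after their values were seen, Sub1 was called at both genes and NC2 at 1 in 3 pairs (HSC82 and HSP82, SSB1 and SSB2, PFK1 and PFK2). Both were called at both genes in 4 pairs (TDH2 and TDH3, ENO1 and ENO2, SSA1 and SSA2, TEF1 and TEF2). The SSA1 positions, from -695 to -631 bp for NC2 and from -696 to -689 bp for Sub1, are those of peaks at the EFB1 promoter. SSA1 is thus an uncertain member of these pairs and of the chaperone counts below. HSC82, the constitutive Hsp90 gene, had NC2 peaks in 5 of 5 libraries (-141, -138, -137, -135 and -136 bp), Mot1 at -140 bp, and Sub1 at -74, -56 and -87 bp. HSP82, its heat-inducible copy, had Sub1 in 3 of 3 libraries (-85, -86 and -70 bp) and Spt15 in 3 of 3, with no peak of NC2 or Mot1. SSB1, a ribosome-associated Hsp70 gene, had NC2 in 5 of 5 libraries from -112 to -103 bp, whereas SSB2 had none, and Sub1 was present at both in 3 of 3. Over the 16 chaperone genes, NC2 bound 4 (25%), Mot1 5 (31.2%), Sub1 9 (56.2%) and Spt15 9, beside 11.3%, 7.9%, 12.2% and 20.3% of all promoters. The 8 histone genes, which form 4 divergent pairs with shared promoters, were bound 4, 6, 8 and 8 times in the same order, beside the same shares of all promoters. HTA1 and HTB1 had no NC2 peak in any library, and Sub1 and Spt15 in all 3.

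The promoters of the TBP regulators themselves were among those called bound. Of 14 genes for the TATA-binding protein and its partners, NC2 and Mot1 were both called at 4 (28.6%, beside 11.3% and 7.9% of all promoters): BUR6, NCB2, MOT1 and TFA2. Sub1 was called at 3 (beside 12.2%) and Spt15 at 4 (beside 20.3%). At BUR6, NC2 peaks ran from -481 to -325 bp and Mot1 was at -405 bp. Spt15 ran there from -486 to -480 bp and Sub1 from -407 to -217 bp. Peaks at tRNA genes were kept in these calls. The tRNA gene YNCE0028C (chromosome V, 492352 to 492424), on the same chromosome as BUR6, had peaks in the same numbers of libraries. These were 5 of NC2, 1 of Mot1, 3 of Sub1 and 3 of Spt15. Whether the peaks at BUR6 belong to that tRNA gene was not tested. BUR6 is thus an uncertain member of these counts and of the comparison of order. At NCB2, the NC2 peaks lay at -133, -132, -137, -137 and -139 bp, Mot1 at -136 bp and Spt15 replicates 1 and 3 at -123 and -130 bp. At MOT1, the peaks of 4 of 5 NC2 libraries lay from -219 to -205 bp, with Mot1 at -222 bp and no Sub1 peak. At TFA2, which encodes the small subunit of TFIIE, NC2 ran from -223 to -204 bp and Mot1 was at -219 bp, while Spt15 ran from -255 to -223 bp and Sub1 from -281 to -268 bp. The order at TFA2 was thus the opposite of that at most promoters. The medians at BUR6 and NCB2 did not follow the order NC2, Spt15, Sub1 either. SUB1 had 2 Sub1 peaks, both at -235 bp, and no peak of NC2, Mot1 or Spt15. SPT15 had peaks of Spt15 only, at -239 and -246 bp, and TOA1, TOA2, TFA1, TFG1, TFG2, BRF1 and BDP1 had none of NC2, Mot1 or Sub1. SUA7, the TFIIB gene, had 1 NC2 peak.

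Of 8 genes often studied with these factors, URA1 and CYC1 were called for NC2 (25%, beside 11.3% of all promoters). URA1 and IMD2 were called for Mot1 (25%, beside 7.9%) and IMD2 for Sub1 (12.5%, beside 12.2%). Spt15 was called at 3 of the 8 (37.5%, beside 20.3%). The CYC1 call rests on 3 NC2 libraries, with peaks at -670, -223 and -222 bp. At URA1, which encodes dihydroorotate dehydrogenase, NC2 lay at -151, -124 and -138 bp in 3 of 5 libraries, Mot1 at -167 bp, and Sub1 at -55 bp in 1 of 3. At IMD2, an inosine monophosphate dehydrogenase gene with a regulated choice of start site, Sub1 lay at -259, -233 and -239 bp and NC2 had 1 peak, in Bur6 replicate 2, at -303 bp. Its relative IMD3 had NC2 in 5 of 5 libraries, from -305 to -291 bp, and Sub1 from -258 to -244 bp. IMD4 had Sub1 at -138 bp in all 3 libraries and no peak of NC2 or Mot1. INO1, HIS3, BNA1 and PHO5 had no peak of NC2, Mot1 or Sub1.

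At tRNA genes, transcribed by RNA polymerase III, Sub1 peaks lay inside the gene, and those of the 3 NC2 libraries with most tRNA genes lay mainly before it. Of 275 tRNA genes, Sub1 bound 272 (98.9%), NC2 235 (85.5%), Mot1 64 (23.3%) and Spt15 275 (100%). By library, the count was 39, 23 and 268 for Bur6, 243 and 255 for Ncb2, 64 for Mot1 and 249, 273 and 273 for Sub1. Bur6 replicates 1 and 2 were thus far below the other 3 NC2 libraries. Most of the NC2 calls rest on exactly 3 libraries (188 of 275 genes).

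The median position of Sub1 peaks was 56, 52 and 54 bp downstream of the mature 5′ end, and 87.5%, 88.7% and 95.1% of them were inside the gene. The peaks of Bur6 replicate 3 and of Ncb2 replicates 1 and 2 had medians of -17, -12.5 and -3 bp and fell in 2 places. Of these peaks, 56.9%, 59.4% and 60.4% lay within 60 bp upstream of the gene, and 34.8%, 38.9% and 37.3% inside it. Bur6 replicates 1 and 2, with 39 and 23 peaks there, had medians of 38 and 61 bp, on the same side of the 5′ end as Sub1, with 46.2% and 17.4% of peaks within 60 bp upstream and 41.0% and 17.4% inside. Mot1 had 63.1% of its 65 tRNA gene peaks within 60 bp upstream. Spt15 had a median of -16 and -21 bp in the 2 Abcam lists and of 4 bp in the Weil Lab list, so that antibody and position cannot be told apart there. The Sub1 median of the Weil Lab list lay between those of the 2 TAP tag lists.

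**Figure D4:**
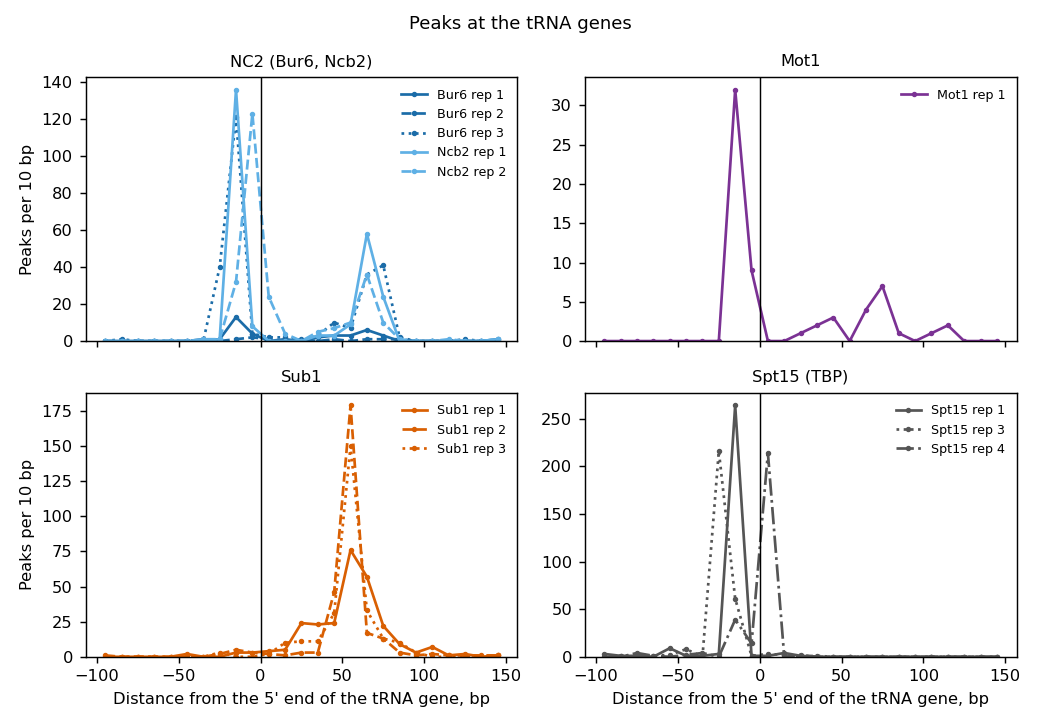
Number of peaks per 10 bp (vertical axis, with its own scale in each panel) by distance in bp from the mature 5′ end of the 275 tRNA genes (horizontal axis), with one line per library. In Bur6 replicate 3, Ncb2 and Mot1, peaks fall upstream of the gene and again inside it, and Sub1 peaks inside it at medians of 52 to 56 bp, with Spt15 peaks at or just before its 5′ end.

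Of 5 other RNA polymerase III genes, NC2 and Sub1 stood apart at SNR6, overlapped at RPR1 and SCR1 and were mixed at SNR52, and Sub1 had no peak at RNA170. At SNR6, which encodes the U6 spliceosomal RNA (chromosome XII, 366235 to 366346), Bur6 replicate 3 lay at -8 bp and Ncb2 at -2 and 0 bp from the 5′ end. Spt15 lay between -12 and -3 bp there, and Sub1 at 78, 52 and 73 bp. Bur6 replicates 1 and 2 and Mot1 had no SNR6 peak. At SCR1, the signal recognition particle RNA, Spt15 lay at -6, -11 and -5 bp, and each of the 9 libraries had a peak inside the gene, with NC2 peaks there from 192 to 294 bp and Sub1 peaks from 50 to 416 bp. At RPR1, the RNA of ribonuclease P, NC2 peaks lay at 57, 146, 112 and 108 bp in 4 of 5 libraries and those of Sub1 from 48 to 125 bp, with Mot1 at 187 bp. At SNR52, a small nucleolar RNA, Bur6 replicate 3 had peaks at -80 and -16 bp and Ncb2 at -152 and -133 bp, and each Sub1 library had 2 peaks, between -105 and 27 bp. At RNA170, Sub1 had no peak, while 4 of 5 NC2 libraries had 1 each, from 5 to 23 bp, and Mot1 had 1 at 48 bp.

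A larger share of peaks of NC2, Mot1 and Sub1 than of Spt15 lay within coding sequence. The share was 42.9%, 15.9% and 16.9% in Bur6, 21.2% and 22.8% in Ncb2, 38.2% in Mot1 and 9.66%, 24.5% and 11.1% in Sub1, against 4.59%, 3.74% and 2.23% in Spt15. All 9 libraries were above all 3 of Spt15, with means of 22.6% ± 11.4 (SD, n = 9) and 3.52% ± 1.20 (n = 3). The difference of 19.0 points had a two-sided exact permutation p of 0.00909, the smallest these groups can give, and 0.155 after adjustment. NC2 alone, at 23.9% ± 11 (n = 5), differed by 20.4 points (exact permutation p = 0.0357, adjusted p = 0.202). None of the 17 tests over these libraries passed an adjusted p of 0.05, and 3 had an unadjusted p under 0.05: these 2 and the distance from Spt15. Sub1 against Spt15, with 3 libraries each, could not go below an exact p of 0.10 and was not tested.

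Many coding peaks lay on a few genes, several of them known as strongly expressed in rich medium. PMA1, the plasma membrane proton pump gene (chromosome VII, 479910 to 482666), held 7, 0 and 7 peaks of Bur6, 6 and 6 of Ncb2, 2 of Mot1 and 2, 7 and 9 of Sub1, and none of Spt15. Bur6 replicate 2 was thus the only one of the 9 without a peak there, and it had none in PDC1, CDC19, ADH1, TEF1 or TEF2 either. PDC1, the pyruvate decarboxylase gene, held 32 peaks from 8 of the 9 libraries, CDC19, pyruvate kinase, 26 from 8, and ADH1, alcohol dehydrogenase, 23 from 8, with none of Spt15 in any of the 3. Such peaks were common in the series: 195 of 458 other targets (42.6%) had a peak in PMA1, 45.2% in PDC1 and 35.8% in CDC19. TEF1 and TEF2, whose coding sequences are near-identical, held 29 and 30 peaks, and reads of such copies may not be assignable to 1 of them.

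Bur6 replicate 1 and Mot1, with the largest coding shares, had 46.2% and 51.7% of their coding peaks in 42 reading frames of at least 5000 bp that the annotation lists by locus tag only. The other 7 libraries had 0% to 30.4% there. Many of these frames have the same length, as YJR029W of 5269 bp, and 298 of 458 other targets had a peak in that one.

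Among all targets of the series, NC2 and Mot1 were most like each other, and Sub1 was most like Spt15 and RNA polymerase III. Likeness was scored as matched peaks of the shorter list over the geometric mean of the list sizes, averaged over library pairs. Of 462 other targets, Mot1 ranked first for NC2 with a score of 0.448, followed by Spt15 with 0.426 and Sub1 with 0.425. The rest of the first 10 were Ydr1, Ada1, Ncl1, Rpc17, Taf4, Ret1 and Cka2. For Mot1, the first 3 were Bur6 at 0.451, Ydr1 at 0.448 and Ncb2 at 0.444, then Taf4, Asg1, YLR278C, the TFIIA subunit TOA1, Ies3, Ies6 and Set5, with Sub1 in place 13 and Spt15 in place 28. For Sub1, Spt15 came first at 0.587, followed by Rpc17 at 0.581, Rpc37, Rpo31, Rpc53, Ret1, Rpc34, RPC40, Rad9 and Rpc19, of which all but Rad9 are RNA polymerase III subunits. Ncb2 was in place 18, Bur6 in 34 and Mot1 in 45 of 463. The scores are a description, with SDs over library pairs of 0.0908 for NC2 with Mot1 and 0.0796 for Sub1 with Spt15.

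**Figure D5:**
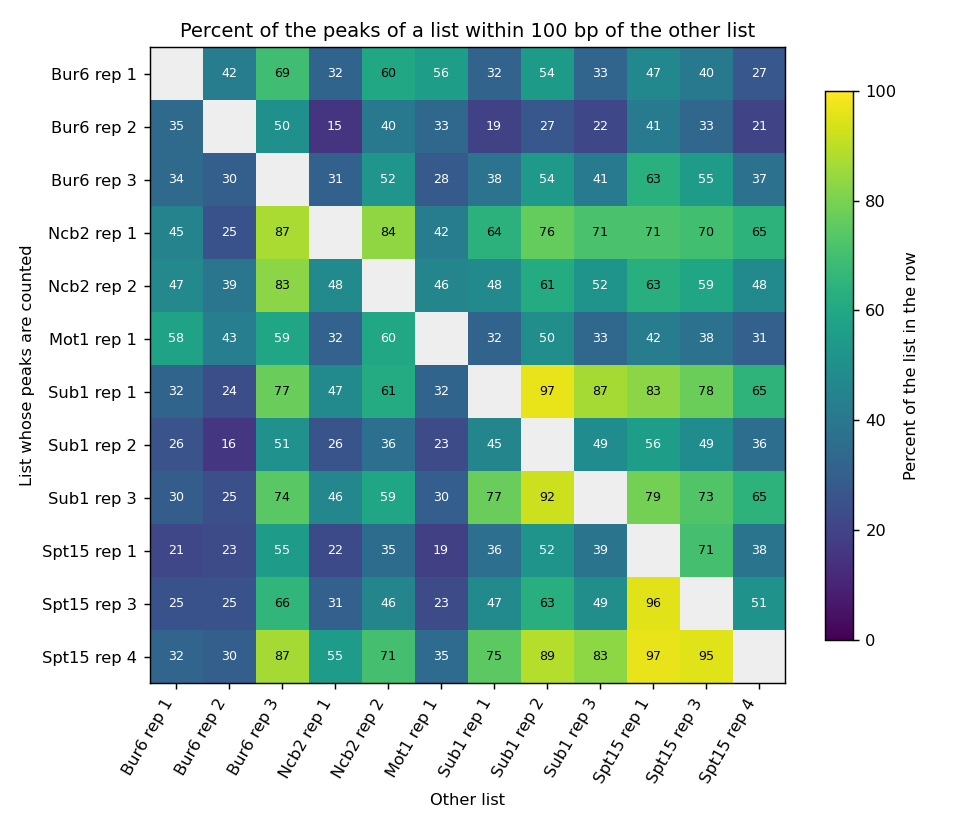
Percent of the peaks of the list in each row (colour and number, scale from 0 to 100) that lie within 100 bp of a peak of the list in each column, for the 9 libraries and the 3 Spt15 lists. Sub1 replicates 1 and 3 are matched at 64.8% to 82.6% by the Spt15 lists, and Sub1 replicate 2 at 35.97% to 55.86%. The Mot1 row is matched at 57.7%, 58.6% and 59.8% by 3 NC2 lists. Bur6 replicate 2 and Ncb2 replicate 1 match it at 42.84% and 31.58%, and the Spt15 lists at 30.6% to 42.0%.

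As means over libraries, the 4 targets had promoter shares of 42.5% ± 9.47 (SD, n = 4 targets), against 27.4% ± 20.8 over the 459 other targets with at least 20 peaks. The difference of 15.1 points did not pass (two-sided permutation test over targets, adjusted p = 0.339). Their tRNA gene share was 21.4% ± 14.6 against 7.80% ± 18.6 (adjusted p = 0.339 by the same permutation test). All 4 were above the median of the other targets in both, which was 25% and 0.833%. Their coding shares, from 15.1% for Sub1 to 38.2% for Mot1, all lay below the median of 50% of the other targets.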

How the data were processed

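The authors deposited 1 peak list per library, as single base positions with the name ChExMix and a peak score, a whole number whose definition is not given in the sources used here. Scores therefore served to rank peaks inside 1 list and nothing else. Per the submitters' processing notes, the upstream tools were BWA, SAMtools and Picard and the genome build was sacCer3. The 6002 protein-coding and 275 tRNA genes are those of the RefSeq annotation of this assembly. No genome sequence was used, so the planned TATA box comparisons (3 tests) were not run and no sequence is printed.

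Peaks were given to the first that applied of rRNA gene, tRNA gene (within 250 bp), chromosome end (within 10000 bp), promoter, coding sequence and other intergenic. Peaks of 2 lists matched within 100 bp, and distances were signed by the gene with the nearest coding start. Bur6 and Ncb2 libraries were pooled as NC2. The library is the replicate. The 17 tests are two-sided exact permutation tests over libraries, and 3 comparisons with other targets used 100000 resamples, each family adjusted by Benjamini-Hochberg at 0.05. The measures were tested on simulated lists. Python 3.11.15, NumPy 2.4.6, SciPy 1.17.1, statsmodels 0.14.6 and matplotlib 3.10.9 were used.

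The libraries, gene lists and tests were chosen with earlier results of these data known. Genes named are, for NC2, Mot1 and Sub1, the 10 promoters bound in every library with the highest mean score percentile (ties by the smallest SD of position, then by name), those bound in every NC2 or Sub1 library without Spt15 (at most 10), and 2 short lists (TBP machinery, and genes studied with these factors). Genes named from the other lists, from coding sequence and from RNA polymerase III were chosen after their values were seen.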

Additional observations from a re-analysis of the deposited data

Results flagged for a closer look

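Bur6 replicate 1 had 42.9% of its peaks in coding sequence and stood apart from the other 4 NC2 libraries, which had 15.9%, 16.9%, 21.2% and 22.8%. The gap to the nearest of the others, relative to the range of the 5, was above the limit used for a group of this size. Chance alone gives such a gap in about 1 of 20 groups. Without this library, all NC2 libraries were still above the 3 of Spt15.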

How the results depend on the processing

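No setting brought any of the 17 tests past the threshold after adjustment. Differences are in percentage points unless given in bp. With peaks at or above the median score of each library, the promoter share turned to 9.34 for all 9 libraries against Spt15, 11.4 for NC2 against Spt15 and 5.47 for NC2 against Sub1, and the position to 51 bp, 56 bp and 22 bp. Without the Weil Lab antibodies, the tRNA gene share turned to 3.46 (all 9) and 4.96 (NC2) against Spt15 and the ribosomal protein share to 0.803 and 0.558. NC2 against Sub1 at promoters turned to 1.14 with promoters of 1000 bp and to 0.277 with the Ydr1 library, which was added after seeing the data. The cause was not tested.

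Libraries with the same replicate number did not deviate together (correlations from -0.154 to 0.142), so the number pairs nothing. With the replicate block, NC2 against Sub1 at promoters gave 0.0656, the tRNA gene share against Spt15 5.70 (all 9) and 2.81 (NC2), and the ribosomal protein share 0.559 and 0.631. The distance of NC2 from Sub1 relative to Spt15 was -20.4 bp (exact permutation p = 0.111).

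Leaving out 1 library at a time, the range was -7.02 to 3.81 for NC2 against Sub1 at promoters (turned without Ncb2 replicate 1), -11.4 to 2.34 and -14.1 to 0.454 for the tRNA gene share of all 9 and of NC2 against Spt15 (both turned without Spt15 replicate 4), and -3.82 to 0.325 and -4.02 to 0.126 for the ribosomal protein share (likewise). It was -0.178 to 1.08 for that share in NC2 against Sub1 (turned without Bur6 replicate 1) and -28.7 to 8.28 bp for the position of all 9 (turned to 0.208, 2.15, 8.28 and 5.78 bp without Bur6 replicate 2, Ncb2 replicate 1, Spt15 replicate 1 and Spt15 replicate 3). The coding share against Spt15 stayed within 16.5 to 20.7 (all 9) and 15.7 to 22.4 (NC2), and the distance of NC2 from Sub1 within -26.0 to -19.1 bp. With other match distances, references and promoter peaks only, that distance ran from -43.3 to -17.3 bp.

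Promoter counts followed the rule. With a window from 300 bp upstream NC2 was called at 363 and Mot1 at 273. With any library the counts were 1634 (NC2), 1159 (Sub1) and 1828 (Spt15), and with every library 180 (NC2) and 557 (Spt15). Leaving out 1 library gave 377 to 581 for NC2 and 557 to 1210 for Spt15. Matching within 50 bp gave 22.1% of NC2 peaks matched by Sub1 and 19.8% of the reverse, 28.2% of Mot1 by Spt15 (45.2% within 250 bp), 39.9% of Sub1 by Spt15 and 37.8% of the reverse. The other 340 values kept their direction and their side of the threshold, or lay within the limits set for a value with no test. The TATA box alternatives were not run.

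The lists give no read depth, 9 libraries of 4 targets carry 2 kinds of antibody, and Mot1 has 1 library, so the part of list size in counts of bound places was not tested, and for Mot1 target and library cannot be told apart.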

Other observations

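A library titled Ydr1, a synonym of NCB2 in the RefSeq annotation, was made with an antibody from the Weil Lab and does not carry one of the 4 titles. Its list held 528 peaks, with 54.9% at promoters, 9.85% at tRNA genes and 23.1% in coding sequence. Of these peaks, 67.0% lay within 100 bp of Bur6 replicate 2, 60.8% of Bur6 replicate 3, 60.2% of Ncb2 replicate 2 and 26.9% of Ncb2 replicate 1, and 51.0% of Mot1. At promoters it lay at a median of -22 bp from Spt15 replicate 4 and of -39.5 bp from Sub1 replicate 3, both made with antibodies of the same source, and at 2 bp from Bur6 replicate 2. It had a peak at 51 of 275 tRNA genes, a number between those of Bur6 replicate 1 and Mot1.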
